A study of Homo sapiens with 21 samples.

Results

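The genes described are those of the cytosolic ribosomal proteins, taken by name: symbols made of RPL or RPS and a number with its usual suffixes, and RPLP0, RPLP1, RPLP2 and RPSA. Of 84 symbols of this form, 80 had at least 10 estimated counts in 3 or more of the 9 RNA libraries, out of 26809 genes with a symbol in all. The 80 comprise 49 genes of the large subunit and 31 of the small subunit, counting paralogues. This rule used no difference between groups, though the set was chosen with earlier results of these data known. Among the 4 symbols left out were RPL10L and RPL3L, which are listed at 0 in every library, and RPL39L, with 1 count in total. The members with the fewest counts, all far above the limit, were RPL22L1, with 235 counts in its lowest library, RPS29 with 245, RPL26L1 with 476, RPS27L with 648 and RPS26 with 993. All 80 genes passed the filter on low counts that preceded the test.

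The libraries came from 786-O, a cultured human cell line derived from clear cell renal carcinoma and lacking functional VHL. The question put to them was how RNA levels differ once JMJD6, a 2-oxoglutarate-dependent oxygenase with a JmjC domain, is knocked out by CRISPR guides. A control guide was used for 3 libraries (JMJD6 wild type, called control here), JMJD6 guide sg2 for 3 and JMJD6 guide sg4 for 3. The labels' treatment text describes transfection of siRNA, so the knockout by guide is taken from the titles and the extraction text. Whether the infected cells were a pool or a clone is not given in the sources used here. The labels speak of triplicates without naming separate cultures, so each p-value measures only the spread between these libraries.

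Ribosomal proteins assemble with ribosomal RNA in the nucleolus into a large subunit, which joins amino acids and holds the exit tunnel, and a small subunit, which decodes the mRNA. Their mRNAs are abundant, mostly short, and belong to the TOP class: transcription starts at a C within a run of pyrimidines, and this 5′ end lets the LARP1 protein and the mTOR kinase pathway hold or release their translation together. Mutations in several of these genes cause Diamond-Blackfan anaemia, and free ribosomal proteins restrain MDM2, the regulator of p53.

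The sequences around the annotated transcription starts are shown because the run of pyrimidines is the feature by which this class of mRNA is known, and for genes at both ends of the order of changes. Each window is taken from the RefSeq promoter table for GRCh38.p14 and spans the 15 bases before the start and the 15 bases from it, 30 in all, read 5′ to 3′ along the gene. Capitals mark a run of at least 6 bases of C or T only, opening with C, which begins within 5 bases of the annotated start on either side. The first set holds the 5 largest increases in each subunit.
RPLP2 (chr11:809952-809981, plus strand): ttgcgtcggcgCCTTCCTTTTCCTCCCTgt
RPL39 (chrX:119791616-119791645, minus strand): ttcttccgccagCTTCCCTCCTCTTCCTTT
RPL34 (chr4:108620561-108620590, plus strand): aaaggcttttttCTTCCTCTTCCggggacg
RPL41 (chr12:56116618-56116647, plus strand): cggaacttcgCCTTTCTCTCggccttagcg
RPL22L1 (chr3:170870181-170870210, minus strand): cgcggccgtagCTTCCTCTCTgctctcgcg
RPS29 (chr14:49598696-49598725, minus strand): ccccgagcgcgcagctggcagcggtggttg
RPS21 (chr20:62387088-62387117, plus strand): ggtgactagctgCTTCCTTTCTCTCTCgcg
RPS27 (chr1:153990747-153990776, plus strand): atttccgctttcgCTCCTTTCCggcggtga
RPS27A (chr2:55232673-55232702, plus strand): tgcgcggcgttCTTCCTTTTCgatccgcca
RPS27L (chr15:63157463-63157492, minus strand): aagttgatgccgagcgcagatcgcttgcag
Of these 10 windows, 8 carry such a run. The run in RPL39, 22 bases long, goes on past the end of its window, and RPS29 and RPS27L hold none at the annotated start. RPL34 has 2 starts in the table and RPS27A has 3, of which the one with the longest run is shown.

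The second set holds the 4 lowest log2 changes among members with an entry in the table: RPS28 of the small subunit and RPL36A, RPL13 and RPL28 of the large subunit. It was chosen after their values were seen. RPL13 has 3 starts in the table, and the same rule picked the one printed.
RPS28 (chr19:8321481-8321510, plus strand): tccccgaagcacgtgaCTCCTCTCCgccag
RPL36A (chrX:101390996-101391025, plus strand): tttgcctcgcggtttCTTTCTTTCCgcgcc
RPL13 (chr16:89560667-89560696, plus strand): ttgcggggccgCTTCCTTTCCgctcggctg
RPL28 (chr19:55385917-55385946, plus strand): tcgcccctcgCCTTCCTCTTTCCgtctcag
Each of these 4 windows carries a run, while RPL3, the next in that order (0.04), and RPS15 (0.06) have none by this rule. Among the 66 members with an entry in the table, 53 (80.3%) had such a run, against 1719 of 10846 other tested genes (15.8%) and 13.7% of all genes in the table, searched in the same way on each gene's own strand. It was found in 39 of 48 members called higher with knockout (81.2%) and in 14 of 18 members not called (77.8%). The 14 members without an entry include RPL5, RPL7, RPL8, RPL23, RPL23A, RPL30, RPL37, RPS2, RPS15A and RPS20. A match is a description of these letters and not a mapped start.

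JMJD6 mRNA itself was measured at 41.5, 40.9 and 44.4 CPM (counts scaled to a fixed total per normalised library) in control libraries 1, 2 and 3. It stood at 17.1, 16.1 and 17.3 CPM with sg2 and at 11.7, 14.4 and 10.7 CPM with sg4. All 6 knockout libraries lay below every control, with a log2 fold change of −1.56 ± 0.09 (SE, edgeR quasi-likelihood test, adjusted p = 5.41e-12).

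The libraries held between 14224263 and 16300347 estimated counts. Of 10 markers of 786-O and renal carcinoma, 9 (PAX8 and VIM among them) were at 10 TPM or more everywhere, and CA9 was at 0.63 to 2.04 TPM. Hemoglobin genes and ALAS2 were at 0 in all libraries, as were 3 of 8 leukocyte and endothelial markers, CD3E and CDH5 among them. Summed leukocyte and endothelial markers, nearly all CD68, were 66.4 to 86.6 TPM in controls, 52.9 to 61.1 with sg2 and 53.9 to 63.1 with sg4, and 7 fibroblast and pericyte markers summed to 30.1 to 61.0, 15.8 to 23.8 and 18.2 to 25.3 TPM. Both sums were lower in every knockout library, and their part in the results below was not tested. CSF1R of the leukocyte list went the other way (log2 change 0.83 ± 0.22, edgeR adjusted p = 0.0113). The top of the fibroblast and pericyte range was control library 1, where COL1A2 stood at 7.489 TPM, against 0.529 and 0.055 in control libraries 2 and 3. Some libraries stood apart in ways that touch short mRNAs: mean fragment length was 269 and 270 bases in sg2 libraries 1 and 3 and 291 to 298 in the other 7. Level rose with gene length most in control library 3 (log2 slope of 0.05 per doubling of effective length over the other genes) and fell most in sg4 libraries 2 and 3 (−0.04 and −0.05), with the other 6 between −0.003 and 0.016. Counts of calls, and the values of some genes, are given below with and without them.

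Ribosomal protein mRNAs made up a sizeable part of the RNA measured. With transcript length taken into account, the 80 genes held 15.7%, 15.7% and 14.7% of all TPM in control libraries 1 to 3. Their share was 16.8%, 16.6% and 16.5% with sg2, and 16.4%, 17.3% and 17.7% with sg4. Every knockout library was above every control. Their share of raw counts, which short genes enter with less weight, was 3.31% to 3.62% in controls, 3.85% to 4.01% with sg2 and 3.76% to 4.20% with sg4. These are shares of the RNA of each library, and in bulk RNA fewer cells of a type and less RNA per cell cannot be told apart.

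Levels differed widely between members. In controls the median member stood at 1610 TPM, with quartiles of 952 and 2644 TPM. RPS28, a small-subunit protein near the mRNA exit, was highest at 5973 ± 112 TPM (SD, n = 3), followed by the stalk protein RPLP1 at 5410 ± 440 TPM and RPL35, which lies by the exit tunnel, at 5133 ± 225 TPM. RPLP1 and RPL35 did not differ beyond their spread. At the low end were RPL22L1, a paralogue of the large-subunit protein RPL22, at 18.3 ± 1.42 TPM and RPL7L1, a paralogue of RPL7, at 55.5 ± 4.03 TPM. RPS23, a protein of the decoding centre that is prolyl-hydroxylated by another 2-oxoglutarate oxygenase, was listed at 113 ± 8.62 TPM. RPS23, RPL13 and RPL27A have a mean effective length (the transcript length open to a fragment) of 3024, 4278 and 4589 bases, against a median of 427 bases for the members. Their counts are divided by these lengths in TPM, and RPS23 and RPL27A have 1 transcript each in the files. Many ribosomal protein genes also have processed pseudogenes of nearly the same sequence, and with the annotation and strand setting not given here, reads shared with such copies or with antisense genes could not be separated.

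**Figure D1:**
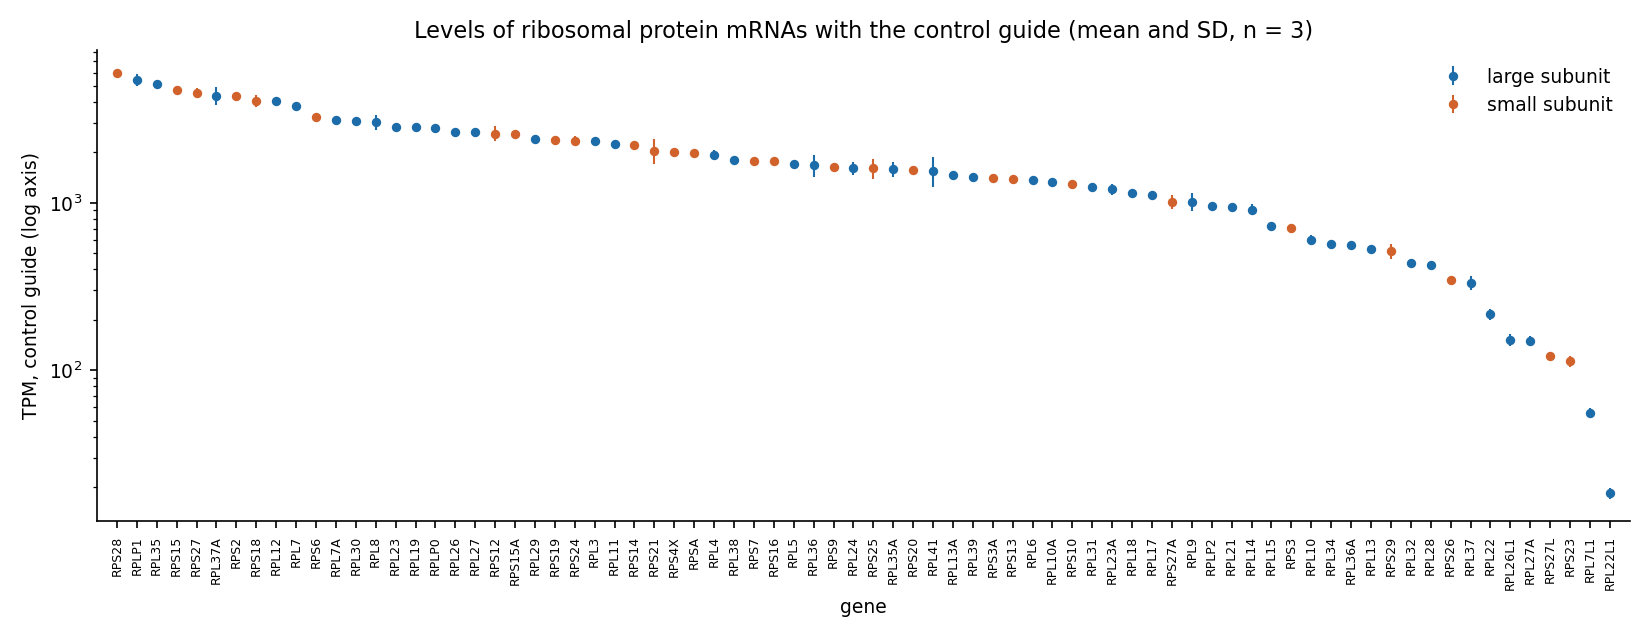
Level of 76 of the 80 ribosomal protein mRNAs in the control libraries, in TPM on a log axis, with points at the mean, bars for the SD (n = 3) and colours for the subunit. The quartiles of the members are 952 and 2644 TPM, RPS28 is highest at 5973 TPM, and RPL22L1 stands far below the rest at 18.3 TPM.

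With JMJD6 knocked out, ribosomal protein mRNAs were higher as a class in the counts. In the mean of both guides against control, 55 of 80 members rose, 0 fell and 25 did not pass the test (edgeR adjusted p under 0.05), where 6.92% of all 13530 genes tested rose and 6.95% fell (13.9% in either direction). The median log2 change of the members was 0.21, a fold of 1.15, against −0.01 over all genes tested. At an unadjusted p under 0.05 edgeR placed 68 members higher and 0 lower (26.9% of all genes tested in either direction and 13.8% lower), and DESeq2 called 54 higher and 0 lower. In 49 members all 6 knockout libraries lay above every control (7.76% of all genes tested), and in 0 did all 6 lie below (7.18%). The rises were mostly small: called changes ran from 0.15 to 0.91 on the log2 scale, and 15 of 55 reached 0.4, a fold of 1.32. Without control library 3 and sg4 libraries 2 and 3 the count was 26, with a median of 0.13 (3.73% of all genes tested rose there), and without control library 3 alone it was 37 (3.68%). Without control 3, both sg2 libraries of shorter fragments and sg4 libraries 2 and 3, which leaves 4 libraries, 37 rose and 2 fell (7.92% of all genes tested rose there).

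**Figure D2:**
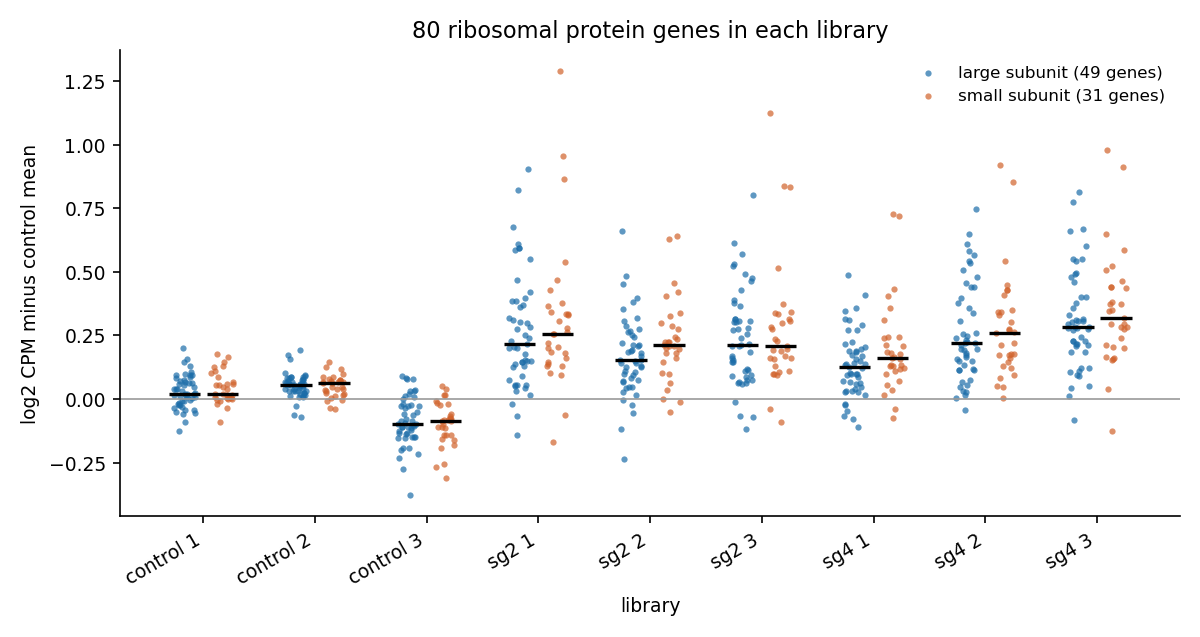
Log2 CPM of each of the 80 members minus its mean over the 3 control libraries, by library, with a black line at the median of the 49 large-subunit and of the 31 small-subunit genes. The medians of the 6 knockout libraries lie above those of the controls for both subunits, with control library 3 the lowest of all and sg4 library 3 the highest.

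The same shift was seen library by library. The median of the 80 members, as log2 CPM relative to the control mean, was 0.02, 0.06 and −0.09 in control libraries 1, 2 and 3. It was 0.23, 0.19 and 0.21 with sg2 and 0.14, 0.22 and 0.29 with sg4. No knockout library overlapped the controls in this median. The lowest of them was sg4 library 1 and the highest sg4 library 3, where the median over all genes tested was −0.0036 in each.

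Each guide was also set against the same 3 controls. With sg2, 48 members rose and 0 fell (5% of all genes tested rose and 5.36% fell, 10.4% together), with a median log2 change of 0.22. With sg4, 48 rose and 0 fell (4.65% and 3.78% of all genes tested, 8.43% together), with a median of 0.22. Both guides called 40 members (2.76% of all genes tested were called higher with both), 8 were called with sg2 alone and 8 with sg4 alone. Because the guides share their controls, this overlap is no separate support. For neither guide were members lower at an unadjusted p under 0.05, and DESeq2 called 48 higher with sg2 and 50 with sg4, and 0 lower. With offsets for each library's effective lengths, in the style of tximport, sg2 gave 31 higher and 1 lower. With the length trend correction described below it gave 31 higher and 2 lower, where 799 of 13530 genes tested rose and 779 fell. For the single-guide refits that follow, the shares of all genes called are not given here. In the mean of both guides, 5.18% of all genes tested rose without sg2 library 1 and 5.61% without sg4 library 3. Without control library 3 it was 3.68%, against 6.92% with every library. Lost power and a change particular to the members therefore cannot be told apart in these counts. Without sg2 libraries 1 and 3 the count for sg2 was 16, without sg2 library 1 alone 29, and without control library 3 it was 29. Without sg4 libraries 2 and 3 the count for sg4 was 7, without sg4 library 3 alone 27, and without control library 3 it was 26.

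Between the guides, 0 members passed the test (edgeR, where 0.0591% of all genes tested were called, 0.0443% higher with sg4 and 0.0148% lower). At an unadjusted p under 0.05, 5 members were higher with sg4 than with sg2 and 2 lower, while 9.88% of all genes tested passed that threshold in either direction. The median log2 difference of sg4 minus sg2 was 0.01. RPS27, not called here (edgeR adjusted p = 0.279), was the one member called by other settings, each time lower with sg4. DESeq2 gave a log2 change of −0.27 ± 0.08 (adjusted p = 0.0449). In edgeR it was −0.27 ± 0.06 without the filter on low counts (adjusted p = 0.00394) and −0.31 ± 0.06 with the length trend correction described below (adjusted p = 0.0171). Without sg2 library 2 it was −0.35 ± 0.07 (edgeR adjusted p = 0.0482).

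**Figure D3:**
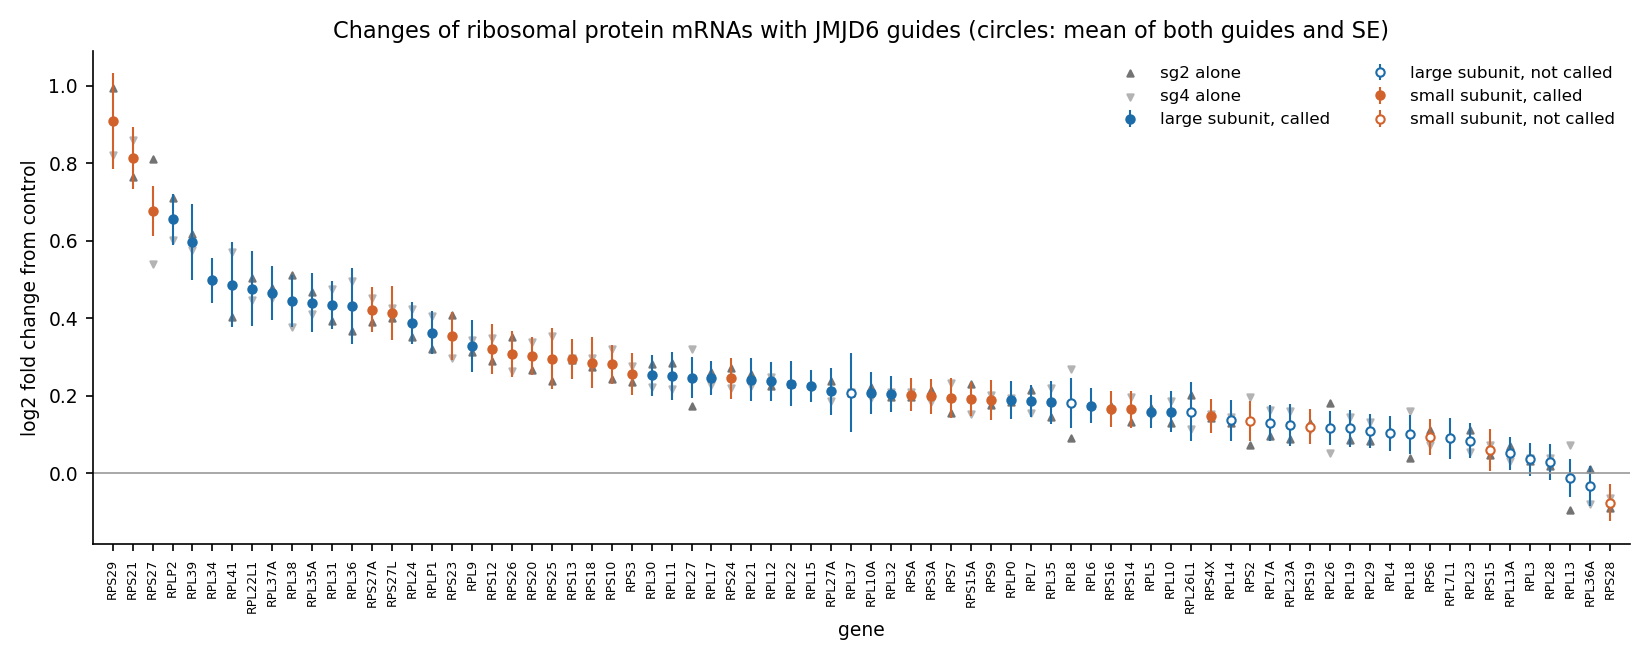
Log2 fold change of 76 of the 80 members from control, ordered by size, with circles for the mean of both guides, bars for its SE, filled circles for members called by edgeR and triangles for each guide alone. All filled circles lie above 0, from 0.15 to 0.91, and the 23 open circles run from −0.08 to 0.21.

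In the small subunit 25 of 31 genes rose, with a median log2 change of 0.22. The largest rises were in RPS29, RPS21 and RPS27. RPS29, a short zinc-binding protein of the small subunit and a Diamond-Blackfan anaemia gene, was measured at 21.7, 18.7 and 17.4 CPM in control libraries 1, 2 and 3. It stood at 46.8, 26.3 and 41.8 CPM with sg2 and at 31.6, 34.6 and 36.1 CPM with sg4. The groups did not overlap, and sg2 library 2 was nearest to the controls. The higher sg2 values were those of libraries 1 and 3, which had the shorter fragments. With sg4 alone the log2 change was 0.82 ± 0.14 (edgeR adjusted p = 5.65e-04). In RPS21, RPS27, RPLP2 and RPL39 too, sg2 library 2 was the lowest of that guide, and the part of fragment length was not tested. The log2 change was 0.91 ± 0.12 (SE, edgeR adjusted p = 2.39e-05).

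RPS21, a small protein on the outer face of the subunit, read 126, 124 and 90.6 CPM in controls, 204, 174 and 200 CPM with sg2 and 186, 212 and 221 CPM with sg4. Control library 3 was the lowest, and all 6 knockout libraries exceeded the controls (log2 change 0.81 ± 0.08, edgeR adjusted p = 3.2e-07). RPS27, a zinc-finger protein of the small subunit, read 184, 172 and 158 CPM in controls, 331, 267 and 304 CPM with sg2 and 230, 248 and 268 CPM with sg4. The sg2 values were mostly above the sg4 values, and both groups were above the controls (0.68 ± 0.06, edgeR adjusted p = 1.54e-07).

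RPS27A encodes a ribosomal protein joined to ubiquitin, from which it is cleaved. It read 387, 378 and 317 CPM in controls, 483, 480 and 456 CPM with sg2 and 460, 483 and 538 CPM with sg4. Here too the groups were apart (log2 change 0.42 ± 0.06, edgeR adjusted p = 2.67e-05). RPS27L, the paralogue of RPS27 and a p53 target, rose by a similar log2 change of 0.41 ± 0.07, from 51.8, 51.4 and 46.1 CPM to 72.2, 60.6 and 64.3 CPM with sg2 and 61.7, 67.7 and 71.4 CPM with sg4 (edgeR adjusted p = 2.3e-04).

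Other small-subunit genes moved less or not at all. RPS23 rose from 189, 187 and 159 CPM to 246, 210 and 254 CPM with sg2 and 211, 215 and 232 CPM with sg4 (log2 change 0.35 ± 0.06, edgeR adjusted p = 3.7e-04). RPS6, the classic substrate of S6 kinase, did not pass the test, at 907, 954 and 859 CPM in controls, 997, 930 and 1014 CPM with sg2 and 916, 937 and 1009 CPM with sg4 (0.09 ± 0.05, edgeR adjusted p = 0.196). RPS28 was the lowest of all 80, with 294, 293 and 298 CPM in controls, 262, 293 and 277 CPM with sg2 and 280, 296 and 270 CPM with sg4 (−0.08 ± 0.05, edgeR adjusted p = 0.322). In 5 of 6 knockout libraries it lay below every control, and sg4 library 2 lay within them.

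**Figure D4:**
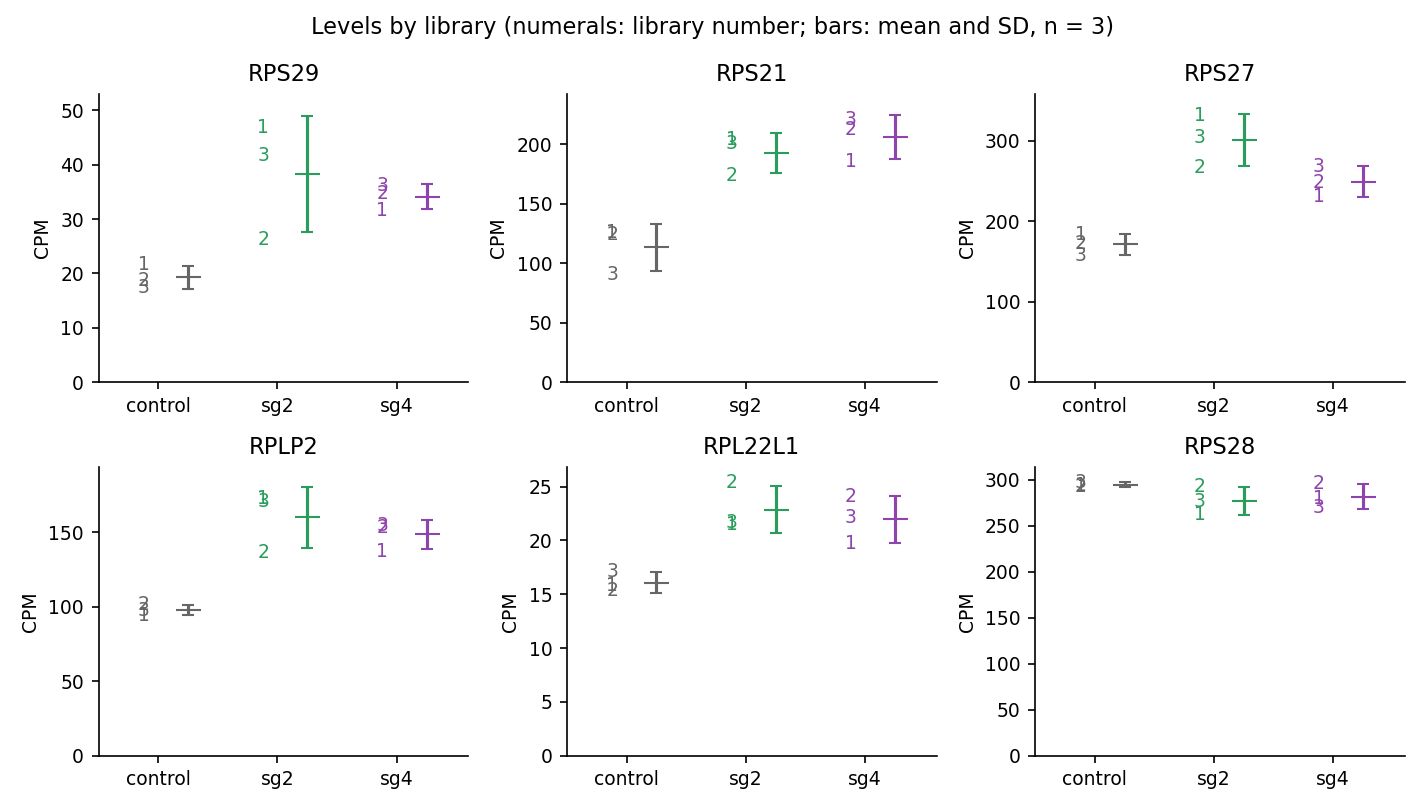
CPM of 6 members in each library, shown by its number, with a bar at the mean and the SD (n = 3) of control, sg2 and sg4 and axes from 0. RPS29, RPS21, RPS27, RPLP2 and RPL22L1 have every knockout library above the controls, RPS29 runs from 26.3 to 46.8 CPM within sg2, and RPS28 has 1 knockout library within the controls.

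In the large subunit 30 of 49 genes rose, with a median log2 change of 0.20. The difference between the subunits in the number of calls was not tested. Summed over genes, the ratio of large-subunit to small-subunit counts was 1.75, 1.74 and 1.74 in controls, 1.70, 1.69 and 1.71 with sg2 and 1.69, 1.71 and 1.71 with sg4, with no overlap. In TPM, where length is divided out, the ratio was 1.31, 1.31 and 1.30 in controls, 1.32, 1.26 and 1.31 with sg2 and 1.29, 1.32 and 1.32 with sg4, and the groups overlapped. The ratio was therefore lower with knockout in counts and not separated in TPM.

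The stalk of the large subunit is built of RPLP0, RPLP1 and RPLP2 and recruits the GTPases of translation. All 3 rose. RPLP2 showed the largest log2 change in the subunit, 0.66 ± 0.07 (edgeR adjusted p = 3.98e-07), with 94.4, 102 and 97.8 CPM in controls, 173, 137 and 170 CPM with sg2 and 137, 154 and 155 CPM with sg4. RPLP1 rose by 0.36 ± 0.05, from 633, 617 and 535 CPM to 739, 773 and 715 CPM with sg2 and 716, 814 and 836 CPM with sg4 (edgeR adjusted p = 7.68e-05). RPLP0, the base of the stalk, changed by 0.19 ± 0.05, from 1424, 1424 and 1270 CPM to 1552, 1596 and 1535 CPM with sg2 and 1463, 1527 and 1722 CPM with sg4 (edgeR adjusted p = 0.0106). The groups of all 3 genes were apart, while RPLP0 lost its call without control library 3 (0.14, edgeR adjusted p = 0.119).

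RPL39, a short protein that lines the exit tunnel, read 96.8, 98.5 and 87.6 CPM in controls, 176, 113 and 144 CPM with sg2 and 117, 139 and 166 CPM with sg4 (log2 change 0.60 ± 0.10, edgeR adjusted p = 1.99e-04). RPL34 read 122, 127 and 108 CPM in controls, 179, 162 and 164 CPM with sg2 and 157, 172 and 174 CPM with sg4 (0.50 ± 0.06, edgeR adjusted p = 2.44e-06). In both, all knockout libraries were above the controls. RPL41, the smallest ribosomal protein, read 199, 195 and 134 CPM in controls, 260, 195 and 244 CPM with sg2 and 198, 291 and 296 CPM with sg4, and 4 of 6 knockout libraries exceeded every control. Its rise of 0.49 ± 0.11 (edgeR adjusted p = 0.00394) was not called by DESeq2 (adjusted p = 0.0685), and without control library 3 and sg4 libraries 2 and 3 it was 0.12 (edgeR adjusted p = 0.397).

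RPL5 and RPL11 bind 5S ribosomal RNA and, outside the ribosome, MDM2. RPL5 read 664, 673 and 635 CPM in controls, 729, 759 and 727 CPM with sg2 and 717, 713 and 759 CPM with sg4 (log2 change 0.16 ± 0.04, edgeR adjusted p = 0.0136). RPL11 read 407, 417 and 366 CPM in controls, 518, 416 and 515 CPM with sg2 and 424, 470 and 491 CPM with sg4 (0.25 ± 0.06, edgeR adjusted p = 0.00772). For RPL11, sg2 library 2 lay within the controls. Both calls were lost without control library 3 (edgeR adjusted p = 0.1 for RPL5 and 0.0738 for RPL11).

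Of the other members named for level or length, RPL35 rose by 0.18 ± 0.06 (edgeR adjusted p = 0.0288), with 444, 465 and 415 CPM in controls, 507, 445 and 511 CPM with sg2 and 464, 545 and 535 CPM with sg4, and overlapping groups. RPL27A, which the 2-oxoglutarate oxygenase RIOX2 hydroxylates on a histidine, rose by 0.21 ± 0.06 (edgeR adjusted p = 0.0208), with 374, 377 and 327 CPM in controls, 445, 384 and 442 CPM with sg2 and 362, 430 and 435 CPM with sg4. One knockout library, sg4 library 1, lay within its controls. Neither gene was called without control library 3 (RPL35 0.14, edgeR adjusted p = 0.181, and RPL27A 0.15, edgeR adjusted p = 0.176). RPL13 gave a log2 change of −0.01 ± 0.05 (edgeR adjusted p = 0.922), with 1185, 1248 and 1099 CPM in controls, 1065, 1157 and 1084 CPM with sg2 and 1156, 1223 and 1338 CPM with sg4.

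Several ribosomal proteins have a second gene, and the pairs did not all move alike. RPL22L1 read 15.8, 15.3 and 17.1 CPM in controls, 21.5, 25.4 and 21.6 CPM with sg2 and 19.7, 24.1 and 22.1 CPM with sg4, with no overlap (log2 change 0.48 ± 0.10, edgeR adjusted p = 0.00164). RPL22, its more abundant partner, read 217, 208 and 181 CPM in controls, 244, 220 and 248 CPM with sg2 and 222, 241 and 248 CPM with sg4 (0.23 ± 0.06, edgeR adjusted p = 0.00792). It lost its call without control library 3 (0.16, edgeR adjusted p = 0.106). Per length, RPL22L1 stood at 7.75%, 7.81% and 10.0% of the TPM of RPL22 in controls, 9.33%, 12.2% and 9.23% with sg2 and 9.34%, 10.6% and 9.44% with sg4. Control library 3, at 10.0%, put the groups in overlap.

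RPS27L stood at 2.58%, 2.73% and 2.72% of the TPM of RPS27 in controls, 2.39%, 2.16% and 2.30% with sg2 and 2.52%, 2.51% and 2.47% with sg4. All knockout libraries were below the controls in this ratio, although both genes rose. The 2 genes differ in effective length, at 76.7 bases for RPS27 and 794.4 for RPS27L. After the length trend correction described below, their log2 changes were 0.35 and 0.36. The remaining pairs overlapped between groups: RPL7L1 at 1.33% to 1.58% of RPL7 over the 9 libraries, RPL26L1 at 5.29% to 6.38% of RPL26, and RPL36AL at 38.9% to 58.3% of RPL36A. RPL7 rose from 1073, 1084 and 1050 CPM to 1242, 1239 and 1242 CPM with sg2 and 1165, 1156 and 1253 CPM with sg4 (log2 change 0.19 ± 0.04, edgeR adjusted p = 0.0031), while RPL7L1 did not pass the test (0.09 ± 0.05, edgeR adjusted p = 0.288). RPL10, whose copy RPL10L is listed at 0, rose by 0.16 ± 0.05 (edgeR adjusted p = 0.045), a call lost in 6 of 9 fits that each left out a library. Among the rest, RPL26 (0.12 ± 0.04), RPL26L1 (0.16 ± 0.08), RPL3 (0.04 ± 0.04), RPL36A (−0.03 ± 0.05) and RPL36AL (0.09 ± 0.08) did not pass the test, with edgeR adjusted p-values of 0.0726, 0.177, 0.648, 0.741 and 0.546.

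RPS24, a Diamond-Blackfan anaemia gene whose last exons are spliced in alternative ways, has 6 RefSeq transcripts in the files. The gene read 515, 526 and 450 CPM in controls, 628, 562 and 610 CPM with sg2 and 540, 593 and 603 CPM with sg4 (log2 change 0.25 ± 0.05, edgeR adjusted p = 0.00286). Its shortest transcript, of 633 bases, took 25.5%, 25.6% and 23.6% of the gene's reads in controls, 29.7%, 29.8% and 27.6% with sg2 and 29.8%, 30.5% and 30.9% with sg4. The mean share was 24.9% ± 1.13 (SD, n = 3) in controls and 29.7% ± 1.17 (SD, n = 6) with knockout, with no overlap. No test is given, since the transcript was looked at after its values were seen. Without control library 3 and sg4 libraries 2 and 3 the difference was 3.70 percentage points, against 4.85 with all libraries, and the groups still did not overlap. The shares of the 673-base and 676-base transcripts were lower with knockout by means of 0.96 and 1.32 points, also without overlap.

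Shares of other members separated the groups too. Among the 41 members with 2 or more transcripts, 35 of 138 transcripts in 18 genes had a share that lay above every control in all 6 knockout libraries, or below in all 6. This held for 3.52% of the transcripts of all tested genes with 2 or more. That background has no lower limit on the reads of a transcript, and transcripts with few reads can hardly separate the groups. In a gene with 2 transcripts, a shift in the share of either is counted for both. The 2 figures are therefore not a like-for-like comparison. For RPS29, the 336-base transcript took 86.0%, 87.5% and 88.6% of the gene's reads in controls, 92.9%, 88.6% and 91.7% with sg2 and 93.8%, 88.7% and 90.9% with sg4. Control library 3 and sg2 library 2 nearly touched. These shares rest on Salmon's division of reads among transcripts that are largely identical.

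Transcript length went with the size of the change. Over the 80 members, the Spearman correlation between log2 change and effective length was −0.42, and that with mean log2 CPM was −0.55. Both are descriptions over genes that share the same 9 libraries. The 3 shortest members illustrate the spread: RPS29 (74.0 bases), RPS27 (76.7 bases) and RPS28 (100.1 bases) had log2 changes of 0.91, 0.68 and −0.08. The 3 longest were RPL27A, RPL13 and RPL7L1 (3518 bases), with 0.21, −0.01 and 0.09.

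Other short genes also rose more often than long ones. Under 500 bases of effective length, 35 of 44 members rose, against 19.8% of 328 other genes. From 500 to 1000 bases it was 12 of 23 members, against 10.9% of 974 other genes. From 1000 to 2000 bases it was 5 of 8 members, against 6.94% of 3212, and above 2000 bases 3 of 5 members, RPL10, RPL27A and RPS23, against 5.45% of 8936. Members thus rose at a higher share than other genes of similar length in each class, with few members in the upper 2 classes, and the difference was not tested. The classes were not matched for level, and small changes are called more readily in abundant mRNAs, so these shares mix size of change with power. From the shortest class to the longest, the median log2 changes of members were 0.25, 0.16, 0.22 and 0.16. Those of the other genes were 0.11, 0.05, 0.01 and −0.02.

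Each library was then corrected for its own trend of level with effective length over all tested genes. After this, 31 members rose and 2 fell (7.38% and 6.8% of all genes tested), and their median log2 change was 0.11. All 31 had also risen before the correction. In the large subunit 20 rose and 1 fell, and in the small subunit 11 rose and 1 fell. By length, 15 of 44 members under 500 bases rose (8.23% of other genes), 8 of 23 from 500 to 1000 bases (5.85%), 5 of 8 from 1000 to 2000 bases (6.48%) and 3 of 5 above (7.55%). The Spearman correlation with effective length over members became 0.02.

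Among the 2 members that fell after the correction was RPS28 (log2 change −0.37, edgeR adjusted p = 4.16e-04). RPS21, RPS29 and RPLP2 were still called, at log2 changes of 0.54, 0.57 and 0.45 against 0.81, 0.91 and 0.66 before. RPS27 went from 0.68 to 0.35, RPL39 from 0.60 to 0.33, RPL41 from 0.49 to 0.30, RPLP1 from 0.36 to 0.17 and RPS24 from 0.25 to 0.12, all still called. RPS24 lost its call with the replicate block added (edgeR adjusted p = 0.0545). RPL22L1, with an effective length of 1696 bases, stood at 0.47 against 0.48 before, and RPL22 at 0.23 and RPS23 at 0.36 also moved by under 1 SE. RPS27L went from 0.41 to 0.36. RPL5, RPL7 and RPL11 were no longer called (0.10, 0.09 and 0.11, with edgeR adjusted p-values of 0.119, 0.119 and 0.136), and RPL35 turned to −0.05 (edgeR adjusted p = 0.516). The members are themselves among the genes that set the trend, 44 of them beside 328 other genes under 500 bases.

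**Figure D5:**
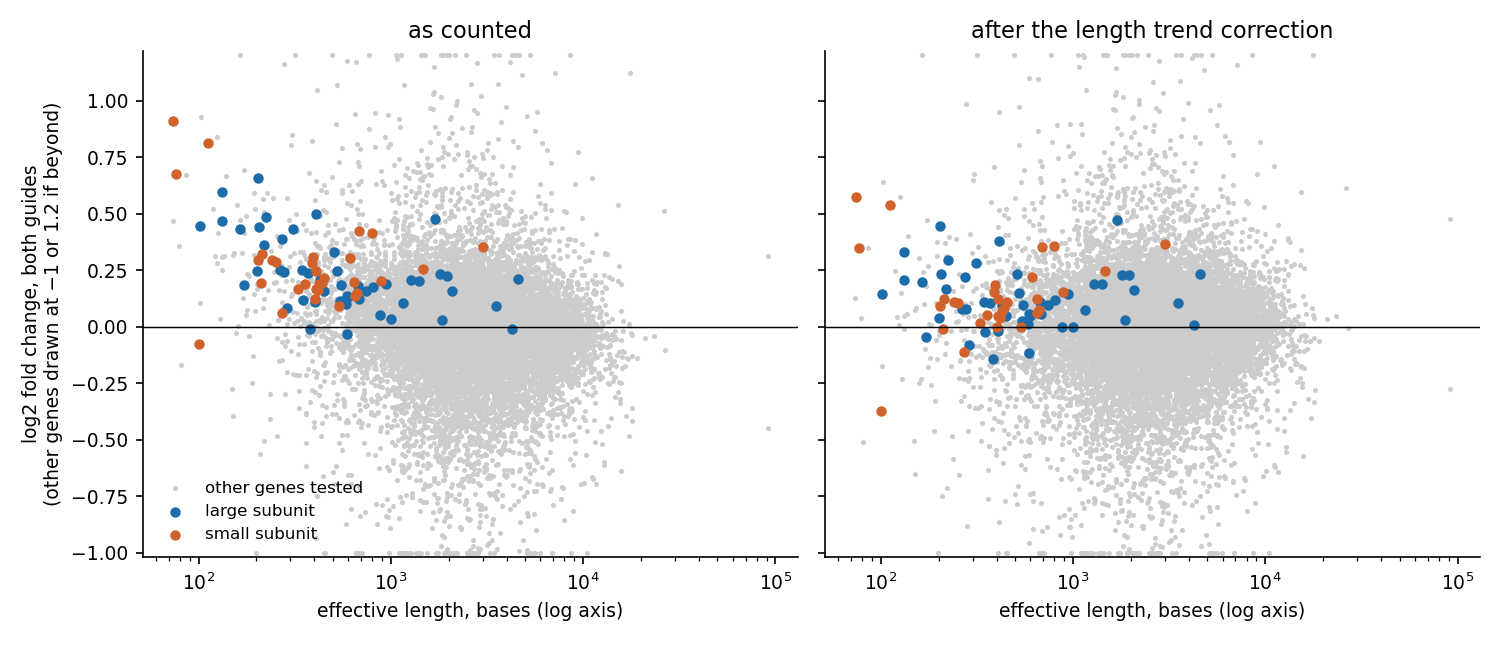
Log2 fold change in the mean of both guides against effective length in bases on a log axis, with other tested genes in grey and members coloured by subunit, as counted (left) and after the correction for each library's length trend (right). Among members, the highest points on the left are short genes, up to 0.91 for RPS29, although the short RPS28 is the lowest member at −0.08. On the right RPS28 stands at −0.37.

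Genes that work with the ribosomal proteins were looked at for the same comparison. The ribosomal proteins FAU (log2 change 0.06), RACK1 (0.03) and RPL36AL, which fall outside the naming rule, did not pass the test. Over all genes tested, 6.92% rose and 6.95% fell. Among 16 other TOP mRNAs of translation, 3 rose and 0 fell, with a median log2 change of 0.07. They were the elongation factor EEF1B2 (0.32 ± 0.05, edgeR adjusted p = 1.49e-04), the nucleolar chaperone NPM1 (0.20 ± 0.04, edgeR adjusted p = 0.003) and the initiation factor subunit EIF3E (0.16 ± 0.05, edgeR adjusted p = 0.031). EEF1B2 read 211, 212 and 183 CPM in controls, 259, 248 and 258 CPM with sg2 and 244, 248 and 260 CPM with sg4, with no overlap.

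Of 11 genes that chaperone ribosomal proteins or help build them in, 3 rose and 0 fell, with a median log2 change of 0.13: BTF3 (0.23 ± 0.05), RRS1 (0.22 ± 0.06) and GRWD1 (0.19 ± 0.06), with edgeR adjusted p-values of 0.00282, 0.0254 and 0.0441. BTF3 is a subunit of the complex that meets the nascent chain, RRS1 helps bring in the 5S particle and GRWD1 escorts RPL3. Of 11 regulators of TOP mRNA translation, 1 rose and 1 fell, which is near the shares over all genes tested (6.92% and 6.95%). Their median log2 change was −0.01. LARP4, which binds poly(A) tails, rose (0.22 ± 0.06, edgeR adjusted p = 0.025), and RPTOR, the mTOR partner known as Raptor, fell from 86.1, 84.7 and 83.5 CPM to 70.9, 70.6 and 76.3 CPM with sg2 and 71.0, 73.9 and 71.1 CPM with sg4 (−0.23 ± 0.05, edgeR adjusted p = 0.00534).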

How the data were processed

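RNA-seq of 9 libraries was analysed. For each RefSeq transcript, the authors deposited Salmon's estimated count, in whole numbers, its TPM and its effective length, per the file headers. Tools named in the submitters' processing notes include cutadapt 1.12, STAR 2.5.2b and DESeq2, with no role given. The annotation and strand setting are not given in the sources used here. The ChIP-seq peaks of the series were not used here.

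Estimated counts were summed by gene. Of 60422 transcripts, 58031 (96.0%) matched RefSeq names, and unmatched ones held 1.33% to 1.65% of counts. After filterByExpr, 13530 genes entered 1 edgeR 4.0.16 quasi-likelihood fit with TMM (R 4.3.3, limma 3.58.1) over 9 libraries without a block. Tests were 2-sided and adjusted by Benjamini-Hochberg over all genes, with calls at an adjusted p under 0.05. CPM used normalised library sizes. The length correction was a loess curve (span 0.5) per library, entered as offsets. DESeq2 1.42.0 and other alternatives are given below. On simulated data with 13363 genes, both guides against control recovered 62% of genes changed 1.25-fold, 88% at 1.5-fold, 98% at 2-fold and 96% at 3-fold, and 4.97% of calls were false.

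The members and lists were chosen with earlier results of these data known. Named with values were JMJD6, the 5 largest called changes per subunit and direction, paralogues, the 3 highest, lowest, longest and shortest members, RPLP0 to RPLP2, RPL5, RPL11, RPS6, RPS27A, RPS24, and up to 3 called genes per other list. RPL28, RPS15 and the transcripts were named after their values were seen. No 2 libraries agreed within sampling noise (chi-square per gene of 3.29 to 6.61 within groups). Some genes are not reported here by name and are left out of the plots that label genes, but stay in all counts.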

Additional observations from a re-analysis of the deposited data

How the results depend on the processing

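Counts of members called in the mean of both guides (55) stayed within 1.5 times under RLE size factors (55), TMM without these genes (55), DESeq2 (54), no filter (60), curated transcripts alone (55) and length offsets in the style of tximport (48). The correction for the length trend gave 33 calls (31 higher), and 24 (22 higher) for sg4, with medians of 0.11 over members, 0.10 for the large and 0.11 for the small subunit. With the replicate number as a block the count was 53, and 38 and 37 for sg2 and sg4. The block together with the length correction gave 29 (27 higher), 28 (26 higher) and 20 (19 higher), with the same medians, 0.11, 0.10 and 0.11. The replicate numbers did not pair the samples, since same-numbered libraries correlated at −0.14 to 0.05 in their deviations from the group means. Without control 3, sg4 2 and sg4 3 the counts were 26 and, for sg4, 6, with a median of 0.13 for all members and for each subunit. With 1 library left out at a time, the counts ran from 37 to 62 for both guides, from 29 to 50 for sg2, from 26 to 58 for sg4 and from 0 to 1 for sg4 against sg2. In those fits 36 of the 55 calls were kept each time. The share of all genes tested that rose in the mean of both guides ran from 3.68% to 6.96% there.

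Alternatives chosen after seeing the data gave 16 for sg2 without its libraries 1 and 3, 7 for sg4 without its libraries 2 and 3, and 20 for sg4 in the fit of 4 libraries, where the medians were 0.12 for all members and 0.10 for the large subunit. Where an arm was left with 1 library, that library was assumed to vary like the other groups. For sg4 against sg2 the count was 1, RPS27, in DESeq2, without the filter, with the length correction, with that and the block, and without sg2 library 2. RPL35 turned to −0.0472 under the length correction and −0.047 with the block added, and RPL27A to −0.0047 in the fit of 4 libraries. Of 682 values of 31 named genes under 22 alternatives, 618 kept direction and call, 57 lost the call and 4 gained one. The named genes include JMJD6 and RPL36AL, which are not members. The difference in the RPS24 share, a value with no test, ran from 4.20 to 5.29 percentage points with 1 library left out. The cause was not tested in any of these cases. At depths of 14224263 counts and more, the lowest member still had 235 counts, and libraries of 1 group differed by a chi-square of 3.29 to 6.61 per gene, where counting error alone gives about 1.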
